A study of Homo sapiens with 8 samples.

Results

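Nuclear receptors are transcription factors, many of which are switched by a small lipid-soluble ligand, such as a steroid, thyroid hormone, retinoic acid, vitamin D or a fatty acid. A list of 44 human genes of this superfamily was taken for study by name. No measured value was used to pick a gene, but earlier results of these data were known when the list was chosen. Each gene was followed through every probe set of the array that the platform annotation ties to it alone. Of the 44 genes, 38 had at least 1 such probe set, 125 probe sets in all, out of 41091 probe sets with a single gene. The remaining 6, NR1H2, NR1H4, NR1I2, HNF4A, NR2F2 and NR0B1, had none in this annotation and were not analysed here.

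The cells were A549, an established line of human lung adenocarcinoma, and all of them were transfected with a small interfering RNA (siRNA) using DharmaFECT 1. The siRNA was either a control or one against steroid receptor coactivator 1 (SRC-1), the product of NCOA1. Each transfected culture spent 36 h in medium with 10% dialyzed fetal calf serum and then received DMEM, again with 10% dialyzed serum, that either lacked or contained glucose. Each of the 2 siRNAs was thus combined with each of the 2 media, which made 4 groups of 2 arrays, labelled as biological replicates. The labels do not describe how far the replicates were grown separately, and the p-values reflect only how much the arrays of a group differ. All groups were of a single cell line, and none was untransfected. For how long the cells stayed with or without glucose, the sources used here do not say. Whether a ligand for any of these receptors was added is not stated either.

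A typical nuclear receptor binds DNA through a zinc finger domain and holds its ligand in a further domain, whose outer face docks coactivators once a ligand is bound. SRC-1 is such a coactivator, which meets the receptor through short leucine-rich motifs and brings in histone acetyltransferases. Many receptors that sense lipids, vitamin D, thyroid hormone or retinoids pair with a retinoid X receptor (RXR), whereas steroid receptors bind as pairs of themselves. In lung epithelium the glucocorticoid and retinoic acid receptors are known for roles in maturation.

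The promoters of 4 receptors whose mRNA was higher with glucose under both siRNAs (brightest probe set) are shown, since these genes moved together. They are from RefSeq (GRCh38.p14), run from 250 bases before to 50 bases after the gene's start, and read 5′ to 3′ on the gene's strand, and 39 of the 44 genes had an entry. The sources used here name no build for the probe sets themselves. Capitals mark any match, on either strand, to AGGTCA (the core hexamer that many nuclear receptors bind), CCAAT (the box bound by NF-Y) or TGACG (the core of the cAMP response element). NR2F1 lies at chr5:93582972-93583271 on the plus strand, NR5A2 at chr1:200027460-200027759 on the plus strand, NR3C1 at chr5:143404433-143404732 on the minus strand and NR4A3 at chr9:99821635-99821934 on the plus strand.
NR2F1: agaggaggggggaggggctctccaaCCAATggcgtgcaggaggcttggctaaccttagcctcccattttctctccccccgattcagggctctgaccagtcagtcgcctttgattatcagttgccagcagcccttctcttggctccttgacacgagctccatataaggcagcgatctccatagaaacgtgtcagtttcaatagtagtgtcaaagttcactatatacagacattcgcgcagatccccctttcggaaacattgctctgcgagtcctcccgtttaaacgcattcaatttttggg
NR5A2: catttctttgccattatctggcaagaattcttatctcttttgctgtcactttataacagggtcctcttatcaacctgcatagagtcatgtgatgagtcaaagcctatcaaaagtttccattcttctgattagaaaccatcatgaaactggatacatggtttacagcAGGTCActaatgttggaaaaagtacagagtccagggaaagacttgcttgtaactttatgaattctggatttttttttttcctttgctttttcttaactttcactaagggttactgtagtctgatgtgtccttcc
NR3C1: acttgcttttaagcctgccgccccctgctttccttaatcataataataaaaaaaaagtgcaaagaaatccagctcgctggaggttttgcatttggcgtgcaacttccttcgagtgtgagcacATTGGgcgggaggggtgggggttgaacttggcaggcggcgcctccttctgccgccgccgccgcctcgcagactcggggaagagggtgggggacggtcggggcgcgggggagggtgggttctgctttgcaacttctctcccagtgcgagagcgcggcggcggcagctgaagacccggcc
NR4A3: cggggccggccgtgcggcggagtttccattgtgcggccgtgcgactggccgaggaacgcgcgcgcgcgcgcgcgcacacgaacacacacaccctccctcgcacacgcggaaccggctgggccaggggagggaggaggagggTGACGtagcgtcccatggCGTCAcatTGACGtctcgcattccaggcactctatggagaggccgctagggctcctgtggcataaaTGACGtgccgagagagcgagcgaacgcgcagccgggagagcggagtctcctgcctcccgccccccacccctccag
NR2F1 and NR3C1 each held 1 CCAAT, NR5A2 held 1 AGGTCA, and NR4A3 held 4 TGACG. No motif overlapped another in these windows.

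Over all 27305 promoters of the same length in the table, 13.9% held AGGTCA, 35.7% CCAAT and 25% TGACG. Among the 39 receptor promoters the numbers were 7, 15 and 9. Of the 6 promoters available for the receptors higher with glucose under both siRNAs, 1 held AGGTCA, 3 held CCAAT and 1, that of NR4A3, held TGACG. The 18 available promoters of the other tested receptors held them in 3, 5 and 4 cases. Of the 6, NR4A3 passed the filter on dim signal given below only through its arrays with glucose. RXRA and NR2C2 each have another probe set that was lower with glucose, RXRA under both siRNAs and NR2C2 under SRC-1 siRNA. No difference is read from these numbers, and the matches describe the letters of each window only.

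A probe set was counted as dim if it averaged less than a log2 signal of 4.80 over the 8 arrays, the 40th percentile of all probe sets with a single gene. By this limit 67 of the 125 receptor probe sets were above it and 58 below. The brightest probe set of each gene stood for the gene, and 29 receptors were tested among 13584 genes. The other 9 receptors had only dim probe sets, the brightest of them between 2.95 and 4.71. They were RORB, NR1I3 (the xenobiotic sensor CAR), NR2E1, NR2E3, RXRG, ESRRG, NR3C2 (the mineralocorticoid receptor), PGR (the progesterone receptor) and NR5A1 (steroidogenic factor 1). NR5A1, at 4.71, lay just below the limit, and ESR2, at 4.82, and NR4A3, at 4.91, just above it. Detection calls were not used here, so a dim signal is not shown to be background, and signals of different probe sets are not ranked against each other.

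Replicate arrays lay close together. The correlation between the arrays of a group was 0.996 to 0.997, and a difference between groups had a standard error (SE) of 0.0834 in the median gene, on the log2 scale. The number of arrays limits the precision. With SRC-1 siRNA the brightest NCOA1 probe set was 9.10-fold lower with glucose and 8.78-fold lower without, and all 4 NCOA1 probe sets were called lower (4.02- to 9.10-fold), so the knockdown labels and the target go the same way at the mRNA level. The 13 markers of lung epithelium and A549 were all above the dim limit, with mean levels of 11.07 to 11.08 (control siRNA) and 11.04 to 11.06 (SRC-1 siRNA) without glucose, and 11.16 to 11.18 and 11.16 to 11.19 with it. Of the markers of other cell types with a probe set, 2 of 3 for leukocytes, 2 of 3 for endothelium and 3 of 5 for fibroblasts were above the limit. The dim ones were PTPRC (3.05), CDH5 (3.52), COL1A2 (4.12) and COL3A1 (4.36). Those above the limit were COL1A1 (7.88), PECAM1 (5.80), CD3E (5.50), VWF (5.47), PDGFRB (5.44), DCN (5.02) and CD14 (5.01). Among the markers of lung epithelium and A549, the lowest were NKX2-1 (5.90), SFTPB (5.97) and SFTPC (7.64). In group order (control siRNA without and with glucose, SRC-1 siRNA without and with glucose) the mean levels were 4.46 to 4.48, 4.41 to 4.83, 4.37 to 4.42 and 4.53 to 4.66 for leukocyte markers. For endothelial markers they were 4.89 to 4.99, 4.92 to 4.93, 4.97 to 5.03 and 4.84 to 4.88, and for fibroblast markers 5.34 to 5.39, 5.33 to 5.43, 5.24 to 5.36 and 5.35 to 5.48. The 3′ minus 5′ signal of GAPDH, a sign of RNA quality, was 0.139 to 0.172 with glucose and 0.123 to 0.141 without (exact permutation test, two-sided p = 0.0571), and that of ACTB 0.513 to 0.643 and 0.414 to 0.535 (p = 0.143). The part of these values in the receptor results was not tested.

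**Figure D1:**
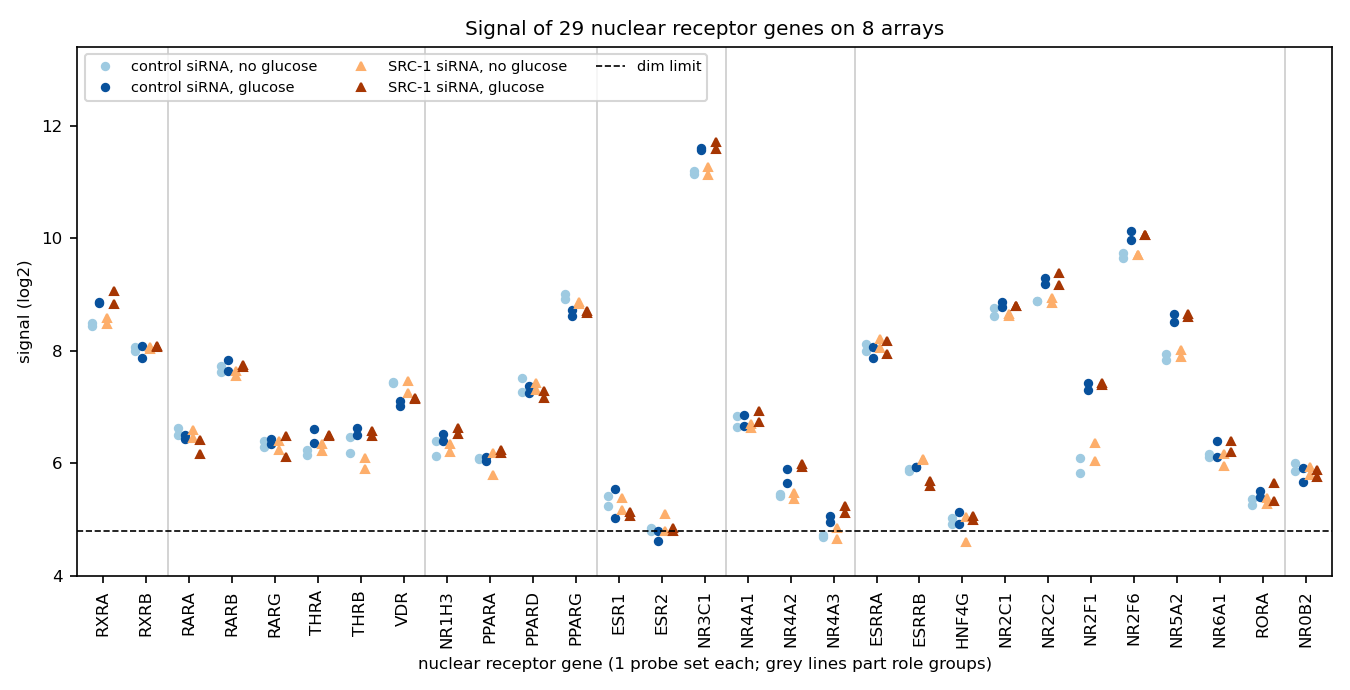
Deposited log2 signal of the brightest probe set of each of the 29 tested nuclear receptor genes (x axis) on each of the 8 arrays (points), marked by siRNA and glucose. NR2F1 on the arrays with glucose (7.31 to 7.43) stands clear of its arrays without glucose (5.83 to 6.36), and NR3C1 (11.13 to 11.71) is separated by glucose under both siRNAs.

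The effect of glucose was read first under control siRNA and then under SRC-1 siRNA, from different arrays. Under control siRNA, 11 of 29 receptors differed between media at an adjusted p under 0.05 (limma with Benjamini-Hochberg adjustment over 13584 genes, "called" from here on), and 45.2% of all genes did. Of these receptors 9 were higher with glucose, against 23.6% of all genes, and 2 were lower, against 21.6%. Under SRC-1 siRNA, 11 of 29 were called, against 44.7% of all genes, with 10 higher (24.6% of all genes) and 1 lower (20% of all genes). NR4A3 passed the dim limit only through its arrays with glucose, and without it 10 of 28 were called in each case (8 higher and 2 lower, and 9 higher and 1 lower). The control siRNA count was 7 without array 2 of control siRNA with glucose (38.5% of all genes in that setting) and 7 when a gene's probe sets were averaged (44.6%). Among the 20 receptors with a probe set not named _s_at or _x_at (names that can mark probe sets shared with other transcripts), it was 4 under control siRNA and 6 under SRC-1 siRNA, against 42.9% and 42.6% of all genes in that setting. In the main fit 37.9% of the receptors were called under each siRNA, below the share of all genes, and the share was lower again in the settings just named. By direction, the share higher was above that of all genes and the share lower was below it. These shares of a small number of genes are not read as a result about the receptors. The median difference over the receptors was 0.054 under control siRNA (0.00088 over all genes) and 0.17 under SRC-1 siRNA (0.0059 over all genes). RNA came from whole cultures, so a smaller number of cells of a type and less RNA per cell cannot be told apart.

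By the brightest probe set, 8 receptors were called higher with glucose under both siRNAs, against 20.6% of all genes, and 0 were called lower under both, against 17.4%. They were NR2F1, NR5A2, NR3C1, RXRA, NR2F6, NR2C2, NR4A2 and NR4A3, or 7 without NR4A3. Another probe set of RXRA was called lower under both siRNAs and another of NR2C2 lower under SRC-1 siRNA, so these genes are counted by a single probe set each. NR2F1 had only 1 probe set, and NR4A3 only 1 above the dim limit. In a fit of all probe sets, NR2F6 and NR4A2 each had 1 of 2 above the limit called higher under each siRNA. NR5A2 had 1 of 3 called higher under control siRNA and 2 of 3 under SRC-1 siRNA, and NR3C1 had 3 of 4 under each. THRA, PPARG and VDR were called under control siRNA only, THRB, NR1H3 and ESRRB under SRC-1 siRNA only, and 15 under neither. The sign of the difference was the same under both siRNAs for 25 of 29 receptors, and across these 29 genes, which share platform and scale and are not independent replicates, Pearson's r was 0.898 (0.844 without NR2F1). No receptor was called in the test of the difference between both glucose effects (the interaction), so none is shown to respond differently to glucose under the 2 siRNAs.

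**Figure D2:**
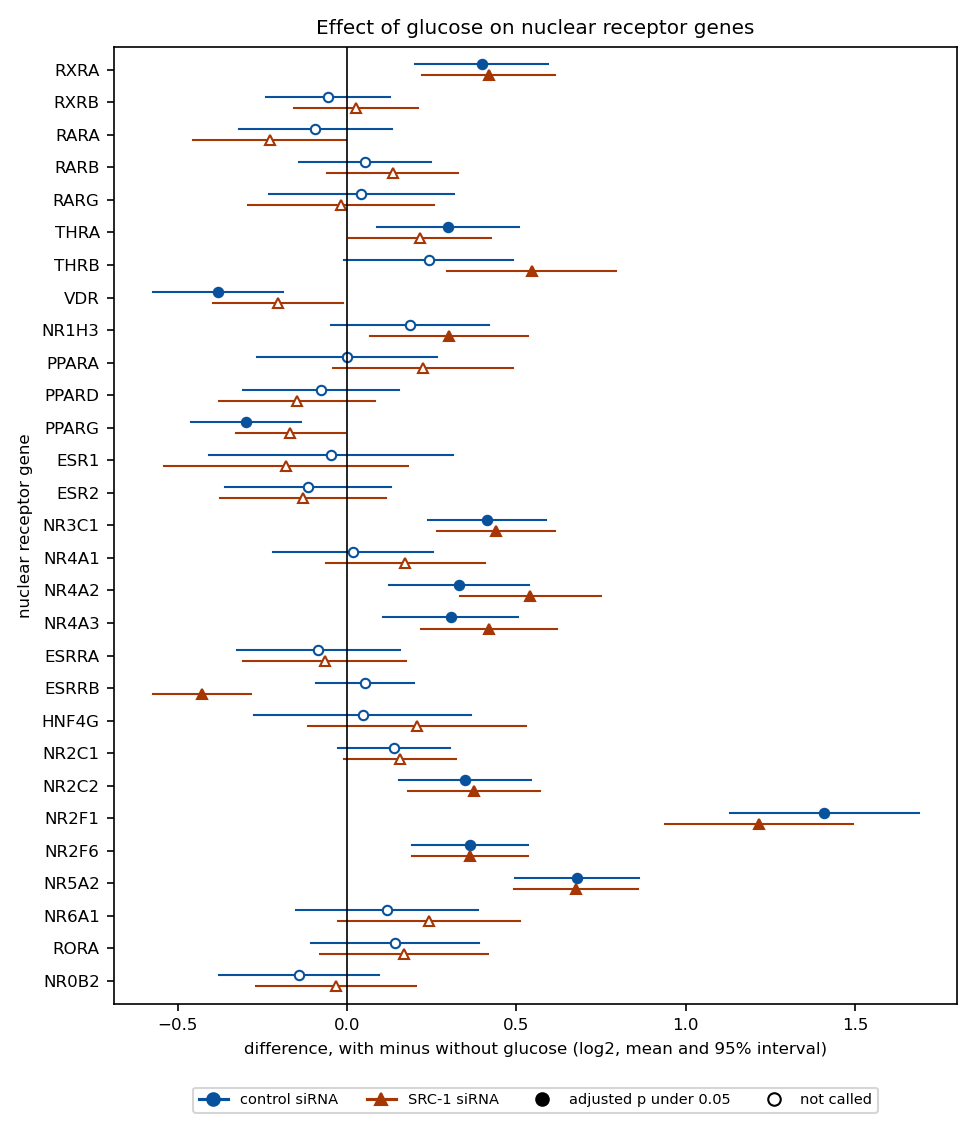
Difference of log2 signal with minus without glucose (mean and 95% interval) for the 29 tested receptors under control siRNA (circles) and SRC-1 siRNA (triangles), with filled symbols for those called. NR2F1 is the farthest to the right under both (1.41 and 1.22), NR5A2 follows at 0.68 under both, and VDR (-0.38 under control siRNA) and ESRRB (-0.43 under SRC-1 siRNA) are the lowest.

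Orphan receptors are those for which no ligand was known when they were found. In the group named here orphan and constitutive receptors, 4 of 10 tested were called higher with glucose under both siRNAs by their brightest probe set, where 20.6% of all genes were. This group does not hold every orphan receptor, since the NR4A receptors and some others were grouped apart. NR2F1 (COUP-TF1), a factor of neural development that often represses transcription, had the largest difference among the 29. For NR2F1, the control siRNA arrays read 5.83 and 6.09 without glucose and 7.31 and 7.43 with it, and the SRC-1 siRNA arrays 6.36 and 6.03 without and 7.40 and 7.42 with glucose. All arrays with glucose thus lay above all without. The difference was 1.41 ± 0.12 under control siRNA (SE, n = 2 per group, adjusted p = 4.69e-05, 2.66-fold) and 1.22 ± 0.12 under SRC-1 siRNA (adjusted p = 9.63e-05, 2.33-fold).

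NR5A2 (LRH-1), which binds phospholipids and drives bile acid and steroid genes in liver, gut and gonads, gave 7.84 and 7.95 without glucose against 8.65 and 8.51 with glucose on the control siRNA arrays, and 8.01 and 7.89 against 8.61 and 8.65 on the SRC-1 siRNA arrays. Here too the media did not overlap. The difference was 0.68 ± 0.080 and 0.68 ± 0.080, or 1.60-fold under each siRNA. Its 2 other probe sets above the dim limit differed by 0.32 and 0.11 under control siRNA, not called, and by 0.28 and 0.40 under SRC-1 siRNA, the latter called.

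NR2F6 (EAR2), a close relative of NR2F1 known as a repressor, gave 9.65 and 9.73 without glucose against 9.97 and 10.14 with glucose on the control siRNA arrays, and 9.70 and 9.69 against 10.06 and 10.06 on the SRC-1 siRNA arrays. The difference was 0.36 ± 0.075 (adjusted p = 0.00434) and 0.36 ± 0.075 (adjusted p = 0.00436). NR2C2 (TR4), which binds direct repeats of the receptor hexamer, gave 8.89 and 8.89 without glucose against 9.19 and 9.29 with glucose on the control siRNA arrays, and 8.86 and 8.95 against 9.38 and 9.17 on the SRC-1 siRNA arrays. Its brightest probe set differed by 0.35 ± 0.085 (adjusted p = 0.00969) and 0.37 ± 0.085 (adjusted p = 0.00706). Neither gene's arrays overlapped between media. The call for NR2C2 rested on that probe set, since the mean over its probe sets differed by 0.077 (adjusted p = 0.529) and -0.028 (adjusted p = 0.835), and under control siRNA it was lost without array 2 with glucose (0.30, adjusted p = 0.0584) and under SRC-1 siRNA without array 1 without glucose (0.33, just short of the threshold).

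ESRRB, an orphan receptor of early embryos and stem cells, was called lower with glucose under SRC-1 siRNA. For ESRRB, the control siRNA arrays read 5.86 and 5.89 without glucose and 5.93 and 5.93 with it, and the SRC-1 siRNA arrays 6.08 and 6.05 without and 5.60 and 5.68 with glucose. Under control siRNA the difference was 0.054 ± 0.063 (adjusted p = 0.525), and under SRC-1 siRNA -0.43 ± 0.063 (adjusted p = 7.70e-04). The 2 SRC-1 siRNA arrays without glucose were the highest of the 8, and the 2 with glucose the lowest. With the mean of its probe sets the SRC-1 siRNA value was -0.18 (adjusted p = 0.0922). The other ESRRB probe set above the dim limit had the opposite sign under each siRNA. It differed by -0.32 under control siRNA and 0.073 under SRC-1 siRNA, and was not called.

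The other 5 tested receptors of the orphan and constitutive group were called under neither siRNA. ESRRA, a regulator of mitochondrial genes, ran from 7.88 to 8.21 and differed by -0.085 and -0.066. NR2C1 (TR2), the partner of NR2C2, ran from 8.61 to 8.86 and differed by 0.14 and 0.16. RORA, a receptor of the circadian clock, ran from 5.26 to 5.65 and differed by 0.14 and 0.17. NR6A1, a factor of germ cells, ran from 5.95 to 6.40 and differed by 0.12 and 0.24. Its 6 probe sets above the dim limit differed in sign and none was called. They went from -0.16 to 0.18 under control siRNA and from -0.43 to 0.24 under SRC-1 siRNA. HNF4G, a relative of the liver factor HNF4A, ran from 4.59 to 5.13 and differed by 0.047 and 0.21.

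The steroid receptors were led by NR3C1, the glucocorticoid receptor, for which the control siRNA arrays read 11.15 and 11.20 without glucose and 11.58 and 11.60 with it, and the SRC-1 siRNA arrays 11.13 and 11.27 without and 11.71 and 11.58 with glucose. All 4 arrays with glucose lay above all 4 without. The difference was 0.41 ± 0.076 under control siRNA (adjusted p = 0.00246, 1.33-fold) and 0.44 ± 0.076 under SRC-1 siRNA (adjusted p = 0.00181, 1.36-fold). The estrogen receptors were not called under either siRNA. ESR1 ran from 5.02 to 5.54 over the 8 arrays and differed by -0.045 ± 0.16 and -0.18 ± 0.16. ESR2, near the dim limit, ran from 4.62 to 5.11 and differed by -0.12 ± 0.11 and -0.13 ± 0.11.

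RXRA, the common partner of the lipid, vitamin D, thyroid and retinoic acid receptors, gave 8.44 and 8.49 without glucose against 8.87 and 8.85 with glucose on the control siRNA arrays, and 8.58 and 8.47 against 9.05 and 8.83 on the SRC-1 siRNA arrays with its brightest probe set. The media did not overlap, and the difference was 0.40 ± 0.086 (adjusted p = 0.00537) and 0.42 ± 0.086 (adjusted p = 0.00415). Another RXRA probe set went the other way, as given with the probe sets. RXRB, another RXR, ran from 7.88 to 8.09 and was not called (-0.055 and 0.028).

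Among the thyroid hormone, retinoic acid and vitamin D receptors, the brightest THRB probe set was called higher with glucose under SRC-1 siRNA. For THRB, the control siRNA arrays read 6.19 and 6.47 without glucose and 6.63 and 6.51 with it, and the SRC-1 siRNA arrays 5.89 and 6.09 without and 6.49 and 6.58 with glucose. The difference was 0.55 ± 0.11 under SRC-1 siRNA (adjusted p = 0.00372, 1.46-fold) and 0.24 ± 0.11 under control siRNA (adjusted p = 0.105). Under both siRNAs the arrays with glucose lay above those without, and the mean of the THRB probe sets was not called under SRC-1 siRNA (0.19, adjusted p = 0.156). The other THRB probe set above the dim limit had the opposite sign, with -0.46 ± 0.16 under control siRNA (adjusted p = 0.0611) and -0.17 ± 0.16 under SRC-1 siRNA (adjusted p = 0.509), and was not called.

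THRA, the other thyroid hormone receptor, gave 6.15 and 6.23 without glucose against 6.61 and 6.37 with glucose on the control siRNA arrays, and 6.34 and 6.22 against 6.51 and 6.48 on the SRC-1 siRNA arrays. It was called under control siRNA (0.30 ± 0.092, adjusted p = 0.0269) and not under SRC-1 siRNA (0.22 ± 0.092, adjusted p = 0.0888). The media overlapped under neither siRNA. The call was lost with the mean of its probe sets (0.21), in a fit of the compared groups alone (adjusted p = 0.0503), without array 1 (adjusted p = 0.135) or array 2 (0.0570) without glucose, and without array 1 with glucose (0.18, adjusted p = 0.161).

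VDR, the vitamin D receptor, gave 7.43 and 7.45 without glucose against 7.02 and 7.10 with glucose on the control siRNA arrays, and 7.47 and 7.24 against 7.16 and 7.15 on the SRC-1 siRNA arrays. It was lower with glucose under control siRNA (-0.38 ± 0.084, adjusted p = 0.00608, 1.30-fold) and not called under SRC-1 siRNA (-0.20 ± 0.084, adjusted p = 0.0826). With the mean of its probe sets the control siRNA value was -0.20 (adjusted p = 0.0580). The retinoic acid receptors were not called with their brightest probe sets. RARA ran from 6.17 to 6.62 and differed by -0.093 ± 0.099 and -0.23 ± 0.099, RARB from 7.55 to 7.83 with 0.054 and 0.14, and RARG from 6.12 to 6.48 with 0.043 and -0.017.

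Of the lipid sensors, PPARG, the receptor that drives fat cell formation, fell with glucose under control siRNA. It gave 8.92 and 9.01 without glucose against 8.73 and 8.61 with glucose on the control siRNA arrays, and 8.87 and 8.83 against 8.71 and 8.66 on the SRC-1 siRNA arrays. The difference was -0.30 ± 0.070 (adjusted p = 0.00845, 1.23-fold), and under SRC-1 siRNA -0.17 ± 0.070 (adjusted p = 0.0884), with all arrays with glucose below all without. The call was lost without array 2 without glucose (-0.26, adjusted p = 0.0584) or array 2 with glucose (-0.24, adjusted p = 0.0539).

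NR1H3 (LXR alpha), a sensor of oxidized cholesterol, gave 6.13 and 6.40 without glucose against 6.51 and 6.40 with glucose on the control siRNA arrays, and 6.34 and 6.21 against 6.63 and 6.52 on the SRC-1 siRNA arrays. It was called under SRC-1 siRNA (0.30 ± 0.10, adjusted p = 0.0408) and not under control siRNA (0.19 ± 0.10, adjusted p = 0.176). The media overlapped narrowly, near 6.40, on the control siRNA arrays and did not overlap on the SRC-1 siRNA arrays. Leaving out any of the 4 SRC-1 siRNA arrays ended that call, with adjusted p from 0.0582 to 0.195. PPARA, a sensor of fatty acids that drives their oxidation, ran from 5.78 to 6.23 and was not called (-0.0002 under control siRNA and 0.22 under SRC-1 siRNA). Its other probe set above the dim limit differed by 0.43 under control siRNA and 0.011 under SRC-1 siRNA, and was not called. PPARD ran from 7.16 to 7.52 with -0.077 and -0.15, and was not called either.

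The NR4A receptors are early response genes that act without a known ligand in their pocket. NR4A2 (NURR1) gave 5.42 and 5.46 without glucose against 5.65 and 5.89 with glucose on the control siRNA arrays, and 5.37 and 5.47 against 5.93 and 5.99 on the SRC-1 siRNA arrays. The difference was 0.33 ± 0.090 (adjusted p = 0.0163) and 0.54 ± 0.090 (adjusted p = 0.00145, 1.46-fold). All arrays with glucose lay above all without. The control siRNA call was lost with the mean of its probe sets (0.25, adjusted p = 0.112) and without array 1 or 2 without glucose (0.0810 and 0.0521) or array 2 with glucose (0.21, adjusted p = 0.0953).

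NR4A3 (NOR1) gave 4.72 and 4.68 without glucose against 4.96 and 5.06 with glucose on the control siRNA arrays, and 4.66 and 4.86 against 5.24 and 5.11 on the SRC-1 siRNA arrays, and the control siRNA arrays without glucose were below the dim limit. The filter was on the mean over all arrays, and NR4A3 passed it only through its arrays with glucose, where it is high. Its call in the filtered fit is therefore given as a description, and its fold may be compressed. The difference was 0.31 ± 0.087 (adjusted p = 0.0200) and 0.42 ± 0.087 (adjusted p = 0.00452). Under control siRNA the call was lost without array 1 (adjusted p = 0.0642) or array 2 (0.0896) without glucose and without array 2 with glucose (0.25, adjusted p = 0.103), and with a prior that follows mean expression (0.0649). In the fit of all probe sets with no filter it was not called under control siRNA (adjusted p = 0.0519) and was under SRC-1 siRNA (0.0137). NR4A1 (NUR77), the third of the family, gave 6.84 and 6.64 without glucose against 6.85 and 6.66 with glucose on the control siRNA arrays, and 6.62 and 6.69 against 6.74 and 6.93 on the SRC-1 siRNA arrays. Its media overlapped on the control siRNA arrays, and it was not called (0.019 ± 0.10 and 0.17 ± 0.10). NR0B2 (SHP), a receptor without a DNA-binding domain that represses others, ran from 5.66 to 6.00 and was not called (-0.14 and -0.033).

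Probe sets of the same receptor did not always move alike, and the cases named next were picked after their values were seen. In a fit of all 41091 probe sets with a single gene and no filter, 16 of the 125 receptor probe sets were called under control siRNA, against 24.1% of all probe sets, with 10 higher (12.4% of all) and 6 lower (11.7%). Under SRC-1 siRNA 19 were called, against 23.4% of all, with 14 higher (12.6%) and 5 lower (10.8%). Another RXRA probe set gave 6.68 and 6.68 without glucose against 6.04 and 6.01 with glucose on the control siRNA arrays, and 6.53 and 6.44 against 6.16 and 6.08 on the SRC-1 siRNA arrays. With minus without glucose it differed by -0.66 ± 0.081 (adjusted p = 5.04e-04) and -0.37 ± 0.081 (adjusted p = 0.0106), opposite to the brightest one. The mean of the RXRA probe sets differed by -0.13 under control siRNA (adjusted p = 0.170) and 0.027 under SRC-1 siRNA (adjusted p = 0.794), so no direction can be given for RXRA as a gene.

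RARA, a retinoic acid receptor, had a probe set that gave 6.27 and 6.22 without glucose against 5.50 and 5.41 with glucose on the control siRNA arrays, and 6.24 and 6.25 against 5.35 and 5.43 on the SRC-1 siRNA arrays. It was 1.72-fold lower with glucose under control siRNA (-0.79 ± 0.082, adjusted p = 2.13e-04) and 1.80-fold lower under SRC-1 siRNA (-0.85 ± 0.082, adjusted p = 1.39e-04), with no overlap of media. A further RARA probe set was called lower under control siRNA (-0.51 ± 0.13, adjusted p = 0.0171) and not under SRC-1 siRNA (-0.20). An NR2C2 probe set was called lower under SRC-1 siRNA (-0.43 ± 0.13, adjusted p = 0.0477), opposite to its brightest one. NR3C1 was more uniform: 3 of its 4 probe sets above the dim limit were called higher under each siRNA, and all 4 lay between 0.25 and 0.41 under control siRNA and between 0.29 and 0.44 under SRC-1 siRNA.

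**Figure D3:**
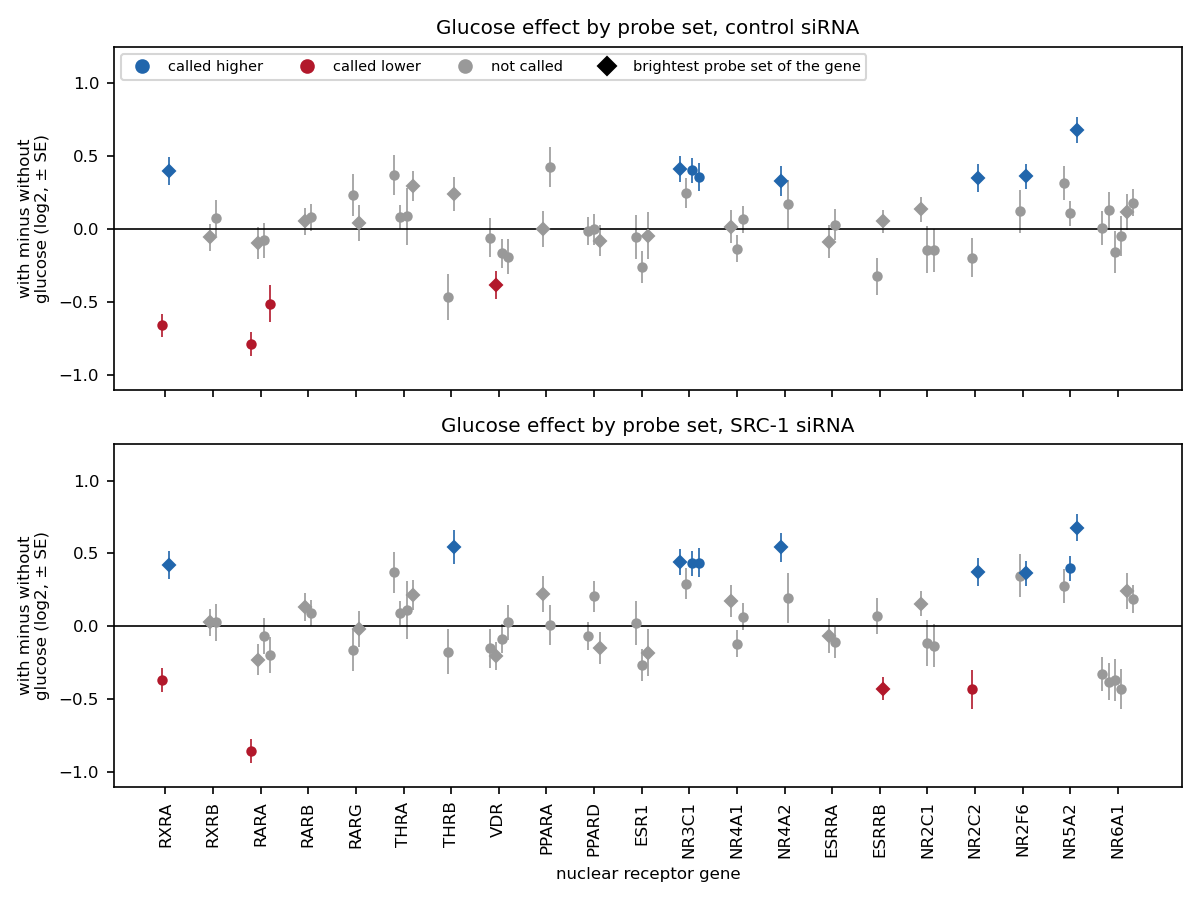
Difference of log2 signal with minus without glucose (± SE) for every probe set above the dim limit of the 21 receptors that have more than 1, in the fit of all probe sets, under control siRNA (top) and SRC-1 siRNA (bottom). Diamonds are the brightest probe set of a gene. Many receptors have probe sets on both sides of 0, among them RXRA, NR2C2, THRB, ESRRB, NR6A1, NR2C1 and NR4A1. The lowest point is a RARA probe set (-0.79 and -0.85), and the NR3C1 points lie together. THRA is not called here, where adjustment was over all probe sets, but was in the fit of genes.

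The effect of SRC-1 siRNA on the receptors was read from the same arrays, and each difference is SRC-1 minus control siRNA. The averaged difference ran from -0.19 (THRB) to 0.14 (NR2F1), with a median of 0.0065 (0.0087 over all genes). None of the 29 was called with glucose, without glucose or averaged over both media (limma), and 0.00736%, 0.0221% and 0.0294% of all genes were. At an unadjusted p under 0.05 the numbers were 1 (ESRRB), 2 (THRB and ESRRB) and 1 (THRB), against 5.75%, 3.19% and 4.96% of all genes. In the fit of all probe sets, 0 of 125 were called in each, against 0.00973%, 0.00973% and 0.0146% of all probe sets. There 9, 7 and 8 had an unadjusted p under 0.05, against 5.93%, 3.79% and 5.17% of all, and for the interaction 6 did, against 4.37%. The 95% intervals of all 29 lay within 1.5-fold in either direction with glucose and averaged over both media, and those of 28 did without glucose. A p that misses the threshold does not show that the levels were the same.

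THRB without glucose was the exception to that bound. Its difference was -0.34 ± 0.11 (95% interval -0.59 to -0.090, unadjusted p = 0.0136, adjusted p = 0.999), with the SRC-1 siRNA arrays at 5.89 and 6.09 and the control siRNA arrays at 6.19 and 6.47. With glucose it was -0.037 (95% interval -0.29 to 0.21). ESRRB differed by -0.29 ± 0.063 with glucose (unadjusted p = 0.00154, adjusted p = 0.635) and by 0.19 ± 0.063 without (unadjusted p = 0.0161, adjusted p = 0.999). Its interaction was -0.48 ± 0.089 (unadjusted p = 5.67e-04, adjusted p = 0.999). No receptor and no other gene was called for the interaction (limma). At an unadjusted p under 0.05 there was 1 receptor, ESRRB, against 3.42% of all genes.

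Of the receptors whose brightest probe set was called higher with glucose under both siRNAs, NR2F1 differed between siRNAs by 0.14 ± 0.086 averaged over both media (95% interval -0.060 to 0.33), and by 0.040 with and 0.23 without glucose. NR5A2 differed by 0.054 ± 0.057 (95% interval -0.076 to 0.18), NR3C1 by 0.042 ± 0.054 (95% interval -0.081 to 0.17) and RXRA by 0.069 ± 0.061 (95% interval -0.069 to 0.21). NR2C2 differed by 0.023 ± 0.060, NR2F6 by 0.0065 ± 0.053, NR4A2 by 0.085 ± 0.064 and NR4A3 by 0.11 ± 0.062. Of the other receptors, ESR1 differed by -0.12 ± 0.11 (95% interval -0.38 to 0.13), PPARG by -0.050 ± 0.050 (95% interval -0.16 to 0.064) and VDR by 0.0039 ± 0.060 (95% interval -0.13 to 0.14). THRB had the lowest averaged difference, -0.19 ± 0.077 (95% interval -0.36 to -0.012), and was not called (limma, unadjusted p = 0.0393, adjusted p = 0.976). A glucose effect and a knockdown effect share arrays and are given side by side without a comparison.

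**Figure D4:**
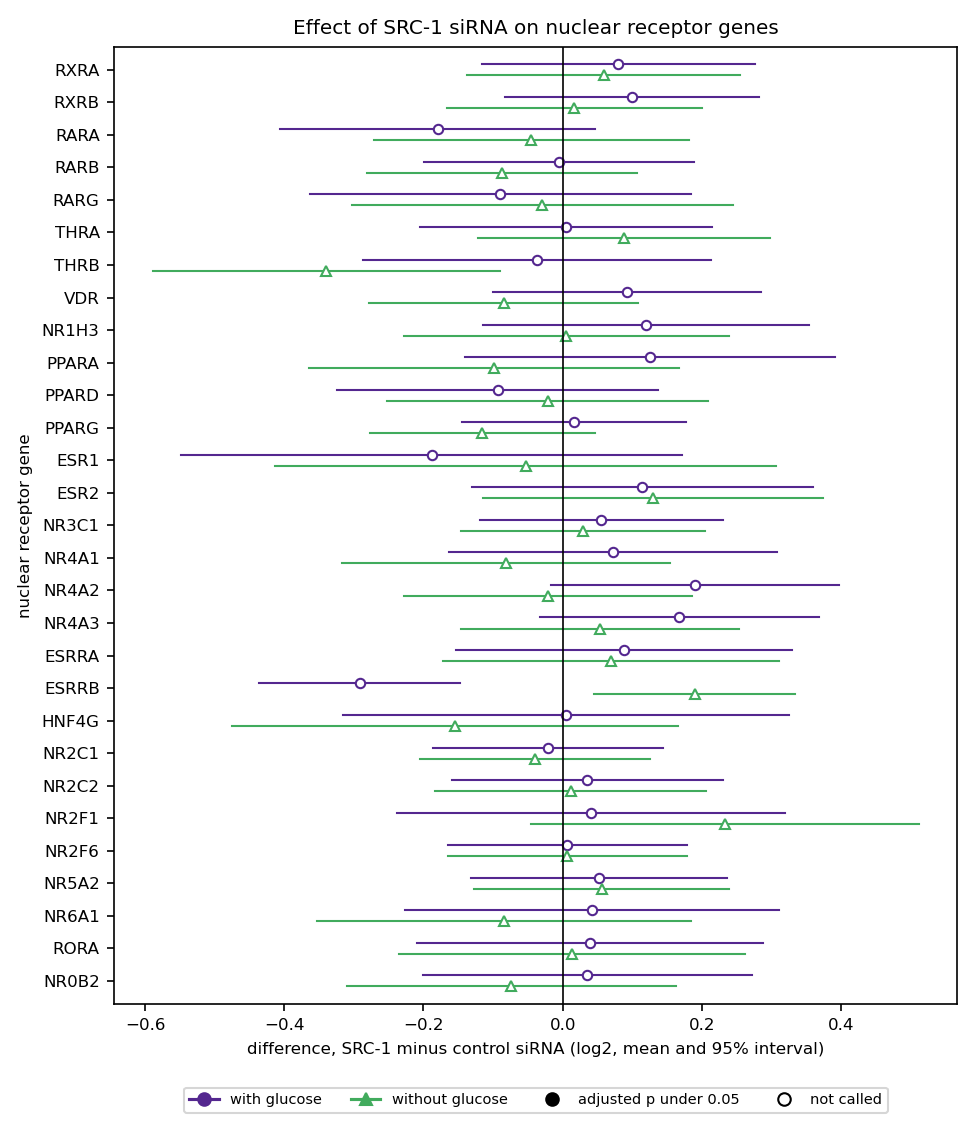
Difference of log2 signal, SRC-1 minus control siRNA, with its 95% interval, for the 29 tested receptors with glucose (circles) and without (triangles). All symbols are open because none was called. The THRB interval without glucose (-0.59 to -0.09) and both ESRRB intervals leave out 0.

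Genes known to be regulated by these receptors, or to make or carry their ligands, were read in 10 lists of textbook membership (238 genes, 3 of them in more than 1 list, 154 tested). Under control siRNA 73 of the 154 differed between media, against 45.2% of all genes, and under SRC-1 siRNA 81 did, against 44.7%. Each list is described by its counts and median beside the median of all genes, 0.00088 under control siRNA, and values are given as mean difference ± SE under control siRNA unless stated.

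In the list of retinoic acid targets and retinoid handling, 3 of 16 tested genes were higher with glucose and 3 lower (median -0.0099). RARRES1, a retinoic acid responsive gene, fell by 1.39 on the log2 scale, DHRS3, which reduces retinal, by 1.18, and STRA6, which takes up retinol, by 0.91, while RDH10, which makes retinal, rose (0.71 ± 0.069). Of 12 VDR targets 2 were higher and 1 lower (median -0.00041). CYP24A1, which breaks down active vitamin D, rose (0.55 ± 0.090, and 0.79 ± 0.090 under SRC-1 siRNA), and CDKN1A fell (-0.35 ± 0.062), whereas VDR itself was lower.

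Of 19 PPAR targets 4 were higher and 5 lower (median 0.026). PDK4, which holds back pyruvate oxidation, was higher (1.93 ± 0.098 under SRC-1 siRNA), and VLDLR (-0.85 ± 0.068), UCP2 (-0.72 ± 0.093) and ACADVL (-0.51 ± 0.081), an enzyme of fatty acid oxidation, were lower. Of 11 LXR targets 4 were higher and 2 lower (median 0.21). ABCA1, the cholesterol exporter, was lower (-1.05 ± 0.16), and SCD (0.85 ± 0.073) and FASN (0.76 ± 0.065), which also belong to fatty acid synthesis under other factors, were higher.

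Of 24 glucocorticoid receptor targets 6 were higher and 9 lower (median 0.049). LCN2 (-2.02 ± 0.13), IGFBP1 (-1.92 ± 0.10), TSC22D3, the glucocorticoid-induced leucine zipper (-1.52 ± 0.064), and CEBPB (-0.98 ± 0.071) were lower. The 6 higher targets are not named here, so the named genes do not stand for the list. NR3C1 itself was higher, and a link between its level and these genes was not tested. Of 16 estrogen receptor targets 6 were higher and 4 lower (median -0.040). STC2, a secreted glycoprotein (-2.77 ± 0.079), XBP1 (-1.62 ± 0.13) and GATA3 (-0.92 ± 0.063) were lower and ADCY9 (1.36 ± 0.077) higher, and STC2 and XBP1 are also known as genes of the endoplasmic reticulum stress response.

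Of 15 HNF4A targets 4 were higher and 2 lower (median 0.088), with CES2 lower (-0.95 ± 0.069) and TM4SF4 (0.80 ± 0.093) and APOH (0.57 ± 0.073) higher. Of 8 targets of FXR, PXR and CAR 2 were higher and 1 lower (median 0.15), with the efflux pump ABCC3 lower (-0.91 ± 0.065) and SLC51B, a subunit of a bile acid transporter, higher (0.74 ± 0.12). Of 21 enzymes and carriers of hormone ligands 4 were higher and 4 lower (median 0.072). CYP27B1, which makes active vitamin D, was lower (-0.64 ± 0.10), and STS, which frees steroids from sulfate, was higher (0.64 ± 0.089). Of 13 chaperones of steroid receptors 6 were higher and 1 lower (median 0.24), among them DNAJA1 (0.76 ± 0.15), PPP5C (0.36 ± 0.077) and HSP90AB1 (0.34 ± 0.065) on the higher side.

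Under SRC-1 siRNA, where 24.6% of all genes were higher and 20% lower with glucose, the numbers higher and lower were 5 and 3 for the retinoid genes, 5 and 4 for the PPAR targets, 4 and 1 for the LXR targets, 4 and 1 for the VDR targets and 7 and 8 for the glucocorticoid receptor targets. They were 6 and 5 for the estrogen receptor targets, 5 and 2 for the HNF4A targets, 2 and 1 for the FXR, PXR and CAR targets, 5 and 4 for the ligand enzymes and carriers and 8 and 1 for the chaperones. LCN2 (-2.18 ± 0.13), IGFBP1 (-1.84 ± 0.10), TSC22D3 (-1.34 ± 0.064), DHRS3 (-1.09 ± 0.072) and ABCA1 (-1.07 ± 0.16) were lower with glucose here as well, and PPP5C (0.57 ± 0.077) and DNAJA1 (0.77 ± 0.15) higher.

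**Figure D5:**
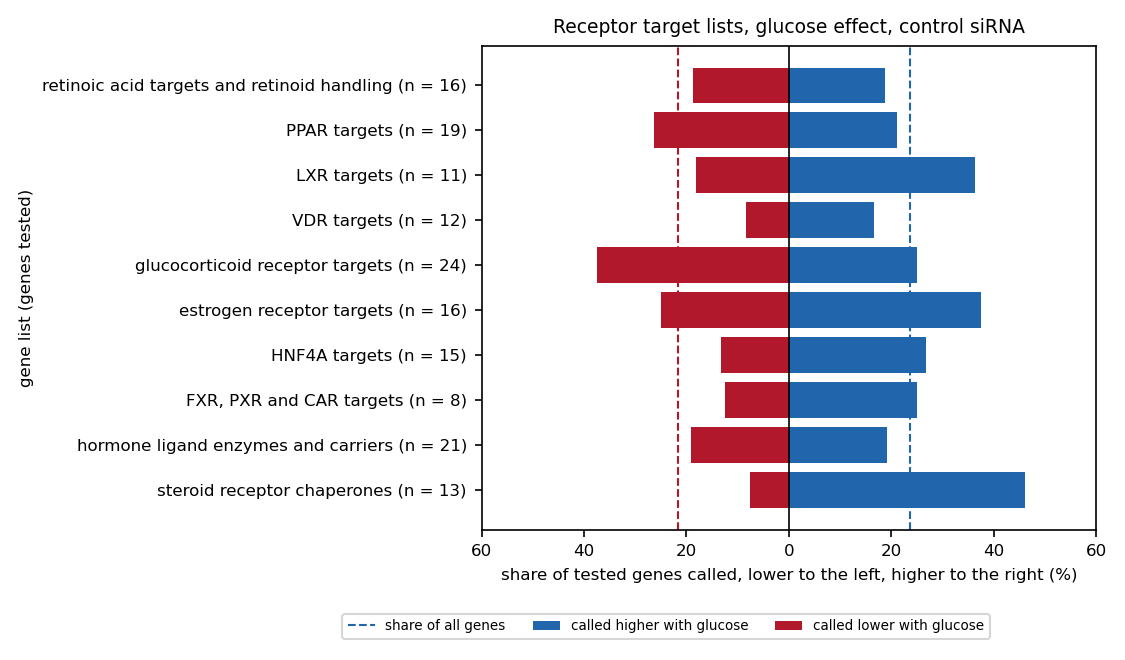
Share (%) of the tested genes of each receptor-related list called higher (right) or lower (left) with glucose under control siRNA, with dashed lines for the share of all genes (23.6% higher, 21.6% lower). The chaperones reach farthest to the right (6 of 13 higher) and the glucocorticoid receptor targets farthest to the left (9 of 24 lower).

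With SRC-1 siRNA, 0 of the 154 list genes were called with glucose, without glucose or averaged over both media (limma), and 8, 5 and 5 had an unadjusted p under 0.05, against 5.75%, 3.19% and 4.96% of all genes. The averaged differences ran from -0.25 to 0.22. The smallest p values belonged to IGFBP3, a binding protein of insulin-like growth factors (-0.23 ± 0.051, adjusted p = 0.809), and RDH10 (0.16 ± 0.049, adjusted p = 0.882), and neither passed the threshold.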

How the data were processed

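The authors' deposited table holds a log2 signal for 54675 probe sets on each of 8 arrays. The log base was inferred, since neighbouring hybridization spikes stood 1.91, 1.92 and 2.14 units apart, and array medians (4.97 to 5.01) were on a common scale. Background correction, probe summary and normalization by the authors are not given in the sources used here. Per the labels' protocols, RNA was isolated with RNeasy columns and labelled by the standard Affymetrix procedure. Gene names came from the platform annotation, in which 41091 probe sets had 1 gene, 1801 had several, 11721 were not listed and 62 were controls. Of those with 1 gene, 41037 matched the RefSeq gene table (GRCh38.p14) and 0 symbols changed.

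Probe sets with a mean below the 40th percentile (log2 4.80) were left out, and the brightest per gene was kept (13584 genes). All 8 arrays entered 1 limma fit (limma 3.58.1, R 4.3.3) with a mean per group, 4 residual and 4.35 prior degrees of freedom. Tests were two-sided and moderated, with Benjamini-Hochberg adjustment over all genes. A further fit took all 41091 probe sets with no filter. The receptors, the lists and the tests were chosen with earlier results of these data known. Every receptor is named, and those called with a difference of at least 0.5 on the log2 scale are given on every array, as are some others. From each list the text draws on the 4 genes with the smallest p for glucose under control siRNA and the 2 with the smallest p for SRC-1 siRNA, not all of which are printed. The alternatives, each changing 1 choice, were quantile normalization, median centring, a dim filter at the 60th percentile or none, averaging a gene's probe sets, leaving out _s_at and _x_at probe sets, a trended robust prior, array weights, only the groups compared, a replicate block and leaving out each array.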

Additional observations from a re-analysis of the deposited data

How the results depend on the processing

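Over 10 alternatives and 8 fits that each left out 1 array, 10 of the 22 called receptor values kept direction and call in every setting run. NR4A3 is among the 22 under both siRNAs and among the 10 under SRC-1 siRNA. It passed the dim limit only through its arrays with glucose, so its values are a description and not support. Of 379 values, 349 kept both, 28 kept the direction and lost the call, and 2 reversed. Both reversals came when a gene's probe sets were averaged: RXRA under control siRNA (-0.13) and NR2C2 under SRC-1 siRNA (-0.028). Each averaged value is the mean of 2 probe sets of opposite sign, 0.40 and -0.66 for RXRA and 0.37 and -0.43 for NR2C2. Why these probe sets differ was not tested. The count of 11 receptors under control siRNA became 7 when a gene's probe sets were averaged, against 44.6% of all genes. Without _s_at and _x_at probe sets, when 20 receptors were tested, it was 4, against 42.9% of all genes. Under SRC-1 siRNA that last setting gave 6 instead of 11, against 42.6%. Leaving out 1 array also changed the counts in some fits, and the share of all genes called changed as well. Such a fit leaves 1 array in a group. The counts for SRC-1 siRNA and for the interaction were 0 in every setting run. Replicate numbers did not pair the samples (correlations of deviations from -0.076 to 0.12). With the replicate block the counts were 11 and 11 for glucose, against 44.7% and 44.1% of all genes, and 0 for the others. NR1H3 under SRC-1 siRNA lost its call there (limma, adjusted p = 0.0558). With NR1H3 under no filter the adjusted p was 0.0703. Groups of 2 arrays limit the precision, and dim signals may compress folds.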
